A study of Mus musculus with 4 samples.

Results

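The genes described here are 10 members of the Notch pathway, taken by name as the receptors Notch1 and Notch2, the ligands Jag1, Jag2, Dll1 and Dll4, the nuclear factor Rbpj and the target genes Hes1, Hey1 and Nrarp. They are 10 of the 22913 genes listed in each library. RNA sequencing was performed on dermal white adipose tissue (dWAT), the fat layer of the skin that surrounds the lower ends of the hair follicles (HFs), microdissected from C57BL/6 mice. The 4 groups were OTD (old mice, telogen, the resting phase of the hair cycle), YTD (young mice, telogen), OAD (old mice, anagen, the growth phase, induced by depilation) and YAD (young mice, anagen, likewise induced by depilation). The protocol gives 18 months for aged and 2 months for young mice. In the age entries of the sample records, however, YTD is put at 18 months and OAD at 2 months, by which both telogen groups would be old and both anagen groups young. The ages of the sample titles and protocol were used. Tissue of several mice went into each group by the described methods. Each group had 1 library, so no difference between groups carries a replicate error or a p-value, and every comparison below is one between single libraries. Age and hair cycle phase were compared over the same 4 libraries, so each library enters 2 of the 4 comparisons. In tissue samples, fewer cells of a type and less RNA per cell cannot be told apart.

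Notch signalling passes between touching cells. A ligand of the Jagged or Delta-like family on one cell binds a Notch receptor on its neighbour, the receptor is cut in 2 steps by ADAM proteases and gamma-secretase, and its freed intracellular part enters the nucleus, where it joins RBPJ (the DNA-binding factor of the pathway) and a Mastermind-like coactivator at target genes such as those of the HES and HEY repressors. In skin the pathway is known for keratinocyte differentiation and for the fate of HF cells, in blood vessels for the choice between tip and stalk cells, where DLL4 is the leading ligand, and in fat for the differentiation of precursor cells.

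Values are FPKM (fragments per kilobase of the listed length, scaled to the mapped fragments of the library) as deposited. Differences are differences of log2(FPKM + 1), and a size of at least 1 on that scale is the threshold used for counting. Intervals are exact 95% counting intervals on fragments estimated from the FPKM, at depths estimated from the values themselves. They cover counting error only, and not the spread between animals or dissections. All 10 genes were at an FPKM of at least 1 in every library and above the level of 3 fragments in every library. Mitochondrially encoded transcripts made up between 14.4% (YAD) and 52.7% (OTD) of all FPKM. For the 10 genes, directions that depend on the scaling between libraries are named where they occur.

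The order of the 10 genes differed between telogen and anagen. In both anagen libraries Nrarp, Hes1 and Notch1 held the 3 highest levels, Dll4 the lowest and Hey1 the next lowest. In both telogen libraries Hes1 was the highest and Notch2 the lowest, with Jag2 (16.0 FPKM) next to Hes1 (16.2 FPKM) in YTD. Dll4 ranked 5 of 10 in OTD and 8 of 10 in YTD. Set among all genes above 0 in a library, Notch1 lay above 53.4% of them in OTD and 52.8% in YTD, but above 89.6% in OAD and 92.1% in YAD. Dll4 moved the other way, from above 61.6% in OTD and 48.8% in YTD to above 33.2% in OAD and 30.8% in YAD. Added over the receptors, the level was 8.58 FPKM in OTD and 8.91 in YTD against 57.6 in OAD and 69.1 in YAD. Added over the 3 targets, it was 61.0 FPKM in OTD and 33.9 in YTD against 138 in OAD and 131 in YAD.

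**Figure D1:**
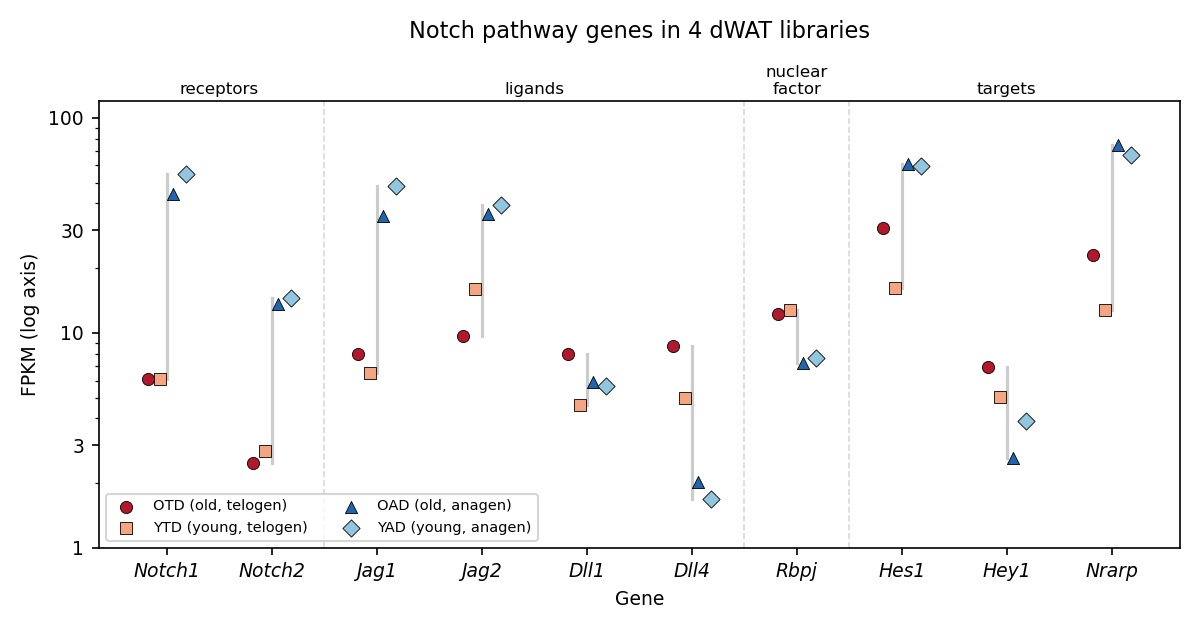
FPKM of each of the 10 Notch pathway genes on a log axis, with 1 point for each of the libraries OTD, YTD, OAD and YAD, and a grey line from the lowest to the highest. Notch1, Notch2, Jag1, Jag2, Hes1 and Nrarp have both anagen points above both telogen points, while Dll4, Rbpj and Hey1 have both anagen points below.

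The start sites of the genes were searched for the core letters that RBPJ is known to bind, TGGGAA, on both strands. RefSeq windows of 250 bases before an annotated start (build GRCm38.p6) were found for 8 of the 10 genes, all but Hes1 and Hey1. A match was present in 2 of the 10 windows of these 8 genes, beside 21.6% of 32851 windows of the same length from all genes. Both windows were those of 1 gene, Rbpj itself. Matches in Rbpj began 149 and 65 bases before its first RefSeq start, and the latter falls again in the window of its second start. Windows without a match are shown whole, for the gene with the largest phase difference (Notch1), the target gene with the largest (Nrarp) and the ligand that went the other way (Dll4), beside the part of the first Rbpj window that lies before the first annotated exon within that window. Capitals mark TGGGAA, here the match at 149 bases, and all 4 are written on the strand of the gene.
Nrarp, chr2:25180508-25180757, plus strand: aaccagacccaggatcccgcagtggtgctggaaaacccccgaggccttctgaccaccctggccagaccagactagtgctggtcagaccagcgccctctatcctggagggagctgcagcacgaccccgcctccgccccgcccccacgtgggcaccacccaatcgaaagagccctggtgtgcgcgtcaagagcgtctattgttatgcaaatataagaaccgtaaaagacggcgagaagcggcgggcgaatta
Notch1, chr2:26503823-26504072, minus strand: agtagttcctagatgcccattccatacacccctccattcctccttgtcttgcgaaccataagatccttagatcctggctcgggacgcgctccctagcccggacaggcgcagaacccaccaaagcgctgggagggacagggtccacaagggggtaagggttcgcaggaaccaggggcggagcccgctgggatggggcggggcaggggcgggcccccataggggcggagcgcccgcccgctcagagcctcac
Dll4, chr2:119325534-119325783, plus strand: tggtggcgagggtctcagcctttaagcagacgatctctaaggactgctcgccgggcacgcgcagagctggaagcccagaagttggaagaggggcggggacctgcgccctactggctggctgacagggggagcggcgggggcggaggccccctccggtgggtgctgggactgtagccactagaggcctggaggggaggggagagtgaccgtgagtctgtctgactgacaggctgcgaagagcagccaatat
Rbpj, chr5:53590096-53590213, plus strand: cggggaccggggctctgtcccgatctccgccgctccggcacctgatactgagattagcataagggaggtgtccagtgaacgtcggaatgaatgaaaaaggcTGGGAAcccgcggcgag
The windows of Nrarp and Dll4 end just before the listed gene spans, while those of Notch1 and Rbpj lie inside the listed span of the gene, at a later start. A missing match says only that these letters are not in this window.

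Comparing anagen with telogen, 6 of the 10 genes were higher in YAD than YTD by at least 1 and 1 was lower, against 32.7% of 17622 genes past this threshold in either direction. In old mice 5 were higher in OAD than OTD by at least 1 and 2 were lower, against 31.7% of 17712 genes. Genes higher by at least 1 made up 16.1% of all genes in young and 16.1% in old mice. Genes lower by as much made up 16.7% and 15.6%. A gene below 1 FPKM in both libraries compared cannot pass on this scale, which lowers the shares of all genes. None of the 10 genes was so low. With such genes left out, 13738 remained in young mice, of which 2829 were higher and 2938 lower by at least 1. In old mice 13847 remained, of which 2854 were higher and 2759 lower. The median difference of the 10 genes was 1.53 in young and 1.31 in old mice, beside 0.02 and 0.01 over all genes. Of the 14 differences of at least 1, none changed its direction under another scaling or pseudocount. In TPM (FPKM rescaled to a fixed total per library) the counts were 6 higher and 0 lower in young mice. In old mice they were 6 higher and 1 lower. The share of all genes past the threshold in TPM was 40.7% in young and 36.3% in old mice. With pooled tissue and 1 library per group these counts describe the libraries and were not tested.

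Notch1 (ENSMUSG00000026923, GRCm38 chromosome 2 from 26457903 to 26516663), a receptor with a known part in keratinocyte differentiation and in vessel sprouting, had the largest phase difference. It stood at 6.10 FPKM in OTD and 6.09 in YTD against 44.0 in OAD and 54.5 in YAD. Both anagen libraries lay far above both telogen libraries, which differed by less than counting error. YAD was 8.96-fold higher than YTD (8.36 to 9.61), and OAD 7.21-fold higher than OTD (6.74 to 7.73). Notch2 (ENSMUSG00000027878, chromosome 3 from 98013538 to 98150367), a receptor expressed in many tissues, was at a lower level but showed the same pattern, with 2.48 FPKM in OTD and 2.82 in YTD against 13.6 in OAD and 14.5 in YAD. Anagen was 5.15-fold higher in young (4.63 to 5.74) and 5.49-fold higher in old mice (4.92 to 6.14). Among the other receptors, Notch3, known from the muscle cells and pericytes of vessels, was at 13.2 FPKM in OTD and 13.8 in YTD against 19.8 in OAD and 23.2 in YAD. Notch4, known from endothelium, was lower in both anagen libraries, with 3.89 FPKM in OTD and 4.71 in YTD against 2.31 in OAD and 2.01 in YAD, though the old difference was 0.09 in TPM without hair, keratin and melanocyte genes. Neither passed the threshold in any comparison as reported. Under other scalings the phase difference of Notch3 reached 1.73 in young and 1.37 in old mice, and that of Notch4 -1.04 in young mice. Exons of Notch1, Dll1, Dll4 and Nrarp overlap annotated transcripts of the opposite strand, and those of Notch2 a transcript of its own strand, so reads of these pairs cannot be told apart here.

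The ligands divided by family. Jag1 (ENSMUSG00000027276, chromosome 2 from 137081456 to 137116644) stood at 8.01 FPKM in OTD and 6.52 in YTD against 35.0 in OAD and 47.9 in YAD. It was 7.36-fold higher in anagen in young mice (6.67 to 8.12) and 4.38-fold higher in old mice (4.01 to 4.79). Jag2 (ENSMUSG00000002799, chromosome 12 from 112908590 to 112929495), the other Jagged ligand, had 9.62 FPKM in OTD and 16.0 in YTD against 35.7 in OAD and 39.2 in YAD. Its phase difference was larger in old mice, at 3.71-fold (3.42 to 4.02), than in young mice, at 2.44-fold (2.28 to 2.61), though the gap between the ages was not tested. For both Jagged ligands the anagen libraries were above the telogen libraries, and Jag2 was lowest in OTD while Jag1 was lowest in YTD.

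The Delta-like ligands did not share this pattern. Dll4 (ENSMUSG00000027314, chromosome 2 from 119325784 to 119335962) stood at 8.70 FPKM in OTD and 4.99 in YTD against 2.03 in OAD and 1.69 in YAD. It was 2.95-fold lower in anagen in young mice (2.27 to 3.89) and 4.29-fold lower in old mice (3.42 to 5.37). In log2 this was -1.15 and -1.68, and the young value was -0.54 in TPM and -0.38 when hair, keratin and melanocyte genes were left out of that total. Dll1 (ENSMUSG00000014773, chromosome 17 from 15367354 to 15375976), a ligand that also takes part in muscle progenitor maintenance, had 7.97 FPKM in OTD and 4.62 in YTD against 5.90 in OAD and 5.65 in YAD. OTD was the highest and the other libraries lay close together. The phase difference of Dll1 was 0.24 in young and -0.38 in old mice, and the old value turned positive in TPM.

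Of the target genes, Hes1 and Nrarp were higher in anagen and Hey1 was lower. Nrarp (ENSMUSG00000078202, chromosome 2 from 25180758 to 25183339), whose product is a feedback inhibitor of the pathway, stood at 23.1 FPKM in OTD and 12.7 in YTD against 75.0 in OAD and 66.9 in YAD. Anagen was 5.25-fold higher in young (4.15 to 6.66) and 3.24-fold higher in old mice (2.73 to 3.89). Hes1 (ENSMUSG00000022528, chromosome 16 from 30065340 to 30067796), a transcriptional repressor and common readout of Notch activity, had 30.9 FPKM in OTD and 16.2 in YTD against 60.8 in OAD and 59.9 in YAD. Its phase difference was 1.83 in young mice and 0.96 in old mice, the latter just short of the threshold. The anagen values of Hes1 were within counting error of each other, and OTD was above YTD.

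Hey1 (ENSMUSG00000040289, chromosome 3 from 8663359 to 8667256), a repressor known from arterial endothelium, stood at 6.96 FPKM in OTD and 5.03 in YTD against 2.63 in OAD and 3.88 in YAD. It was 2.65-fold lower in anagen in old mice (1.94 to 3.70). In young mice the difference of -0.30 had an interval from -0.68 to 0.06, which includes 0, and it turned positive in TPM. Rbpj (ENSMUSG00000039191, chromosome 5 from 53555779 to 53657445) had 12.3 FPKM in OTD and 12.8 in YTD against 7.21 in OAD and 7.66 in YAD. It was lower in anagen by less than the threshold, by -0.67 in young and -0.69 in old mice, although the old value was -1.03 in TPM without mitochondrially encoded and skeletal muscle genes. The young value of Rbpj turned positive in TPM, and both did when hair, keratin and melanocyte genes were left out of the TPM total. Under TPM the median phase difference of all expressed genes (FPKM of 1 or more in any library) was itself 0.73 in young and 0.56 in old mice.

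**Figure D2:**
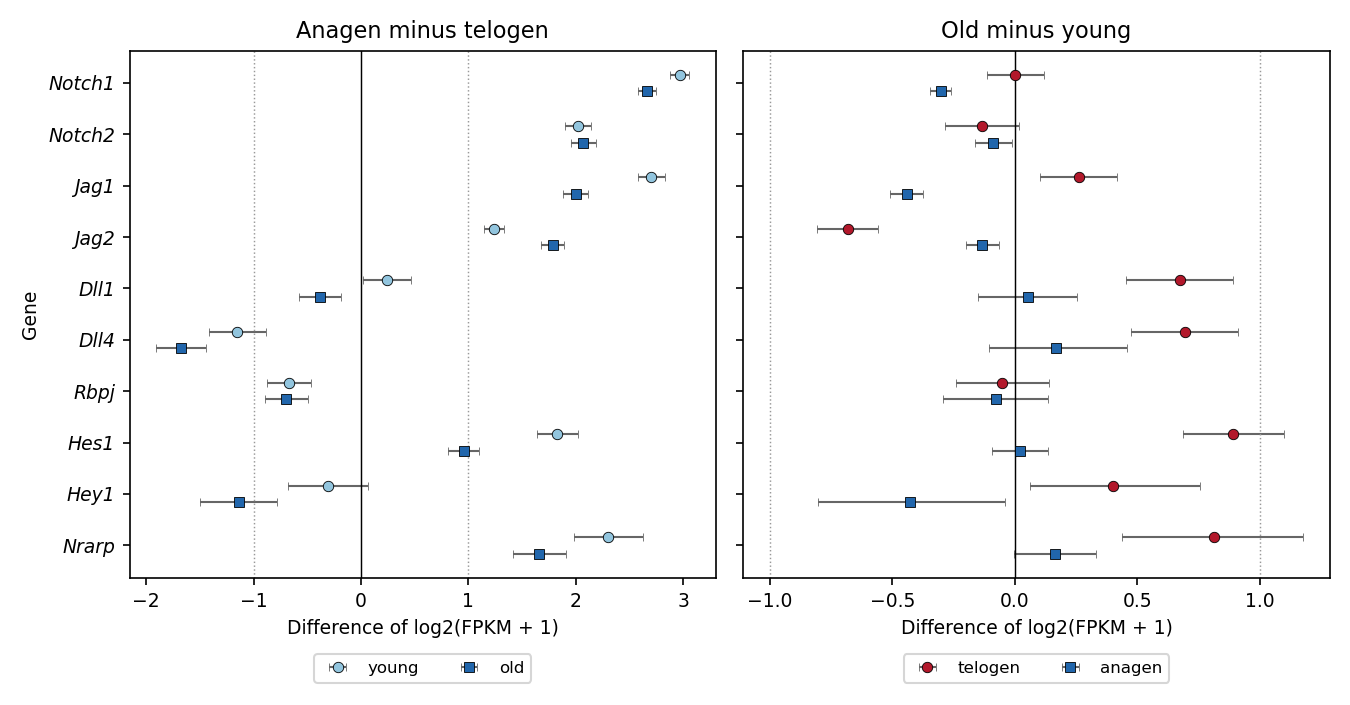
Differences of log2(FPKM + 1) for the 10 genes, between phases on the left (young and old mice) and between ages on the right (telogen and anagen). Bars are exact 95% counting intervals and dotted lines mark -1 and 1. Phase differences reach 2.97 (Notch1) and no age difference passes the threshold.

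Markers of several cell types moved with phase in the same libraries. All 12 endothelial markers (Pecam1, Cdh5, Kdr and others) were lower in anagen by at least 1 in both ages, with a summed level of 697 FPKM in OTD and 458 in YTD against 184 in OAD and 140 in YAD, and none was at 0. Per 100 FPKM of this list, Dll4 stood at 1.25 in OTD and 1.09 in YTD against 1.10 in OAD and 1.21 in YAD, a ratio computed after the values were seen. By the same ratio Notch4 ran from 0.559 in OTD to 1.44 in YAD, and Hey1 up to 2.77 in YAD. All 19 hair matrix and shaft markers found of 20 listed were higher in anagen by at least 1 in both ages, with sums of 268 FPKM in OTD and 496 in YTD against 28796 in OAD and 23733 in YAD. Of 14 epidermal markers found of 15 listed, of which 1 was at 0 in YTD, 11 were higher by at least 1 in young and 10 in old mice. Summed epidermal levels were 112 FPKM in OTD and 164 in YTD against 2848 in OAD and 2239 in YAD. Adipocyte markers, which the label of the tissue calls for, were all above 0 in every library, with Adipoq (adiponectin) at 427 FPKM in OTD and 280 in YTD against 103 in OAD and 76.5 in YAD. Summed skeletal muscle markers were at 73550 FPKM in OTD and 114658 in YTD against 16685 in OAD and 12590 in YAD, with none at 0. The part of these shifts in the differences of the Notch genes was not tested.

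**Figure D3:**
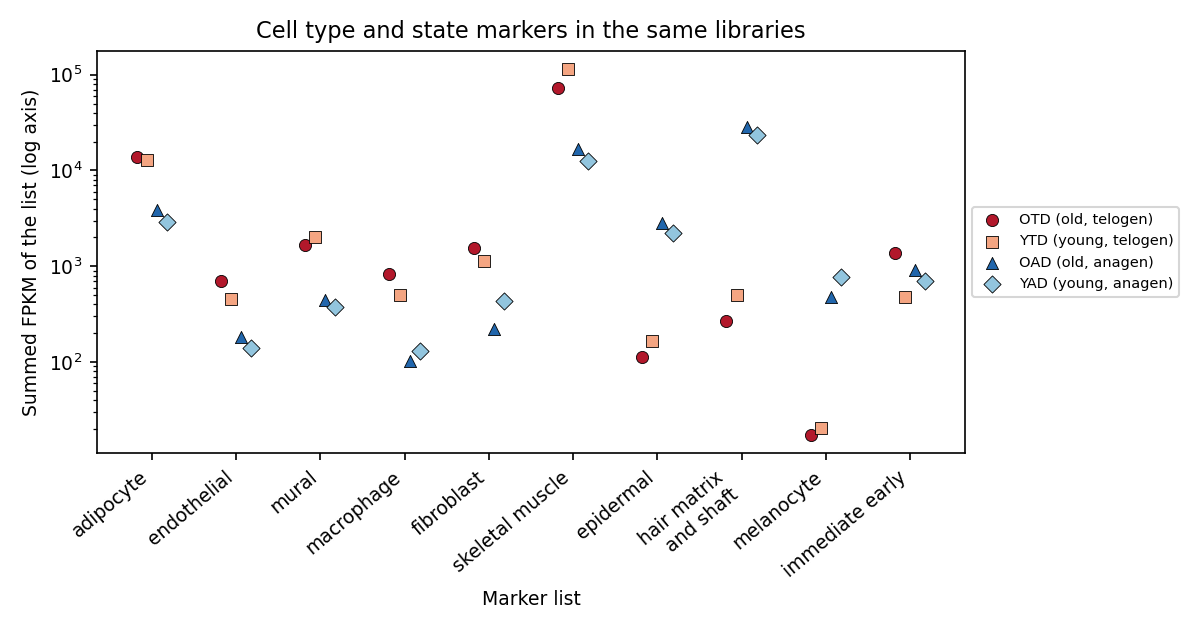
Summed FPKM of each marker list, on a log axis, in OTD, YTD, OAD and YAD. Epidermal, hair matrix and shaft and melanocyte lists are higher in both anagen libraries, and the adipocyte, endothelial, mural, macrophage, fibroblast and skeletal muscle lists are lower. Des, which is also in the skeletal muscle list, makes up 1039 of 1670 FPKM of the mural sum in OTD and 1666 of 2042 in YTD. The mural list holds Notch3 too, and 2 of its 10 genes are higher in anagen in each age. The immediate early list is highest in OTD.

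Comparing old with young mice, no gene of the 10 passed the threshold in either phase, against 3.6% of 17230 genes in telogen (1.67% higher and 1.93% lower) and 1.18% of 17613 genes in anagen (0.727% higher and 0.454% lower). Genes high enough in FPKM to pass at all numbered 12982 in telogen and 13068 in anagen. In telogen 7 of the 10 were higher in OTD than YTD, beside 7889 of all 17230 genes. Counting intervals lay above 0 for 6 of them and below 0 for 1 other gene, against 19.5% and 28.1% of the 17055 genes with at least 1 estimated fragment. The median difference was 0.33, beside -0.03 over all genes. All 3 targets and both Delta-like ligands were among the 6, and the remaining gene was Jag1.

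Hes1 showed the largest age difference, 0.89 in telogen (0.69 to 1.10), from 16.2 FPKM in YTD to 30.9 in OTD, which is 1.91-fold. Nrarp differed by 0.81 (0.44 to 1.18) and Hey1 by 0.40 (0.06 to 0.76). Rescaled to TPM without mitochondrially encoded genes, Hes1 and Nrarp passed the threshold, at 1.12 and 1.04, beside 5.37% of all genes. Dll4 was 1.74-fold higher in OTD (1.46 to 2.08) and Dll1 1.72-fold higher (1.44 to 2.07). Jag2 was the exception, 1.67-fold lower in OTD than YTD (1.52 to 1.83), and Jag1 was 1.23-fold higher (1.08 to 1.39). The receptors and Rbpj differed between OTD and YTD by no more than counting error, with intervals from 0.913 to 1.10 for the fold of Notch1, 0.761 to 1.02 for Notch2 and 0.834 to 1.11 for Rbpj. The direction of these 3 differences changed with the scaling.

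In the same telogen libraries the endothelial list had a median difference of 0.58, with 12 of 12 on the side of OTD. All 10 macrophage markers lay on that side too, with a median of 0.42 and sums of 821 FPKM in OTD and 500 in YTD. The immediate early list (Fos, Egr1 and others, rapid responders to stimulation and to tissue handling) had 20 of 20 on that side, with a median of 1.39 and sums of 1392 FPKM in OTD and 478 in YTD. The hair matrix and shaft list (19 of 19) and the skeletal muscle list (15 of 15) lay on the side of YTD, with medians of -0.95 and -0.70. Mixed were the fibroblast (6 higher, 2 lower), adipocyte (9 higher, 6 lower), epidermal (4 higher, 10 lower), mural, lymphatic and melanocyte lists. The part of these lists in the age differences of Hes1, Nrarp, Dll4 and Jag2 was not tested.

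In anagen the median age difference over the 10 genes was -0.08, beside 0 over all genes, with 4 genes above and 6 below 0, beside 8800 above and 8795 below 0 of all 17613 genes. Counting intervals lay below 0 for 5 of the 10 genes and above 0 for 0, against 15.0% and 16.8% of the 17403 genes with at least 1 estimated fragment. Notch1, Jag1, Hey1 and Rbpj differed more in size between ages in anagen than in telogen, and the other 6 less. Jag1 was 1.37-fold lower in OAD (1.31 to 1.43), Hey1 1.48-fold lower (1.04 to 2.10) and Notch1 1.24-fold lower (1.20 to 1.28). Jag2 was 1.10-fold lower (1.05 to 1.15) and Notch2 1.07-fold lower (1.01 to 1.13). For Hes1 the fold of OAD over YAD was 1.02 with an interval from 0.937 to 1.10, and for Dll4 it was 1.20 with an interval from 0.892 to 1.64. Nrarp, at 75.0 FPKM in OAD and 66.9 in YAD, differed by 0.16 with an interval that includes 0 and reaches 0.33, and was -0.07 in TPM and -0.04 in TPM without hair, keratin and melanocyte genes. The small positive values of Hes1 and Dll1 also became negative in TPM, at -0.21 and -0.15. Of the cell type markers, 12 of 12 endothelial genes had more FPKM in OAD (median 0.30). So had 15 of 15 adipocyte genes (median 0.30) and 12 of 14 epidermal genes (median 0.17). All 8 fibroblast markers and all 10 melanocyte markers were lower, with medians of -0.66 and -0.76, as were all 10 macrophage markers (median -0.26). The hair matrix and shaft (8 higher, 11 lower), skeletal muscle (11 higher, 4 lower), mural and lymphatic lists were mixed. The part of these lists in the age differences of the 10 genes was not tested.

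The other genes of the pathway were 57, listed by role, and all 57 were found. Of the 56 above 0 in a library, 7 were higher in YAD than YTD by at least 1 and 3 lower, and in old mice 10 were higher and 3 lower. These 10 of 56 and 13 of 56 stand beside the 32.7% and 31.7% of all genes past the threshold. In TPM the counts were 27 and 24 beside 40.7% and 36.3% of all genes, so that their place relative to all genes depended on the scaling. None of the 24 differences of at least 1 in this list changed direction under 5 other scalings, which were added after the data were seen. The median difference was 0.23 in young and 0.16 in old mice. Between ages, 0 were higher and 1 lower by at least 1 in telogen, and 0 passed in anagen.

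The genes of receptor and ligand processing were 10, among them Adam10, Adam17 and the gamma-secretase subunits Psen2 and Ncstn. Of these, 0 passed the threshold in any comparison as reported, beside the 32.7% and 31.7% of all genes between phases. Under other scalings some passed, with phase differences in young mice of up to 1.64 (Aph1b). As reported, the differences of the 10 genes ran from -0.48 to 0.82 between phases in young mice. The gamma-secretase subunit gene Aph1b, whose close copy Aph1c may share reads with it, had the upper value, at 4.17 FPKM in OTD and 1.76 in YTD against 3.25 in OAD and 3.87 in YAD. Adam10 was at 20.2 FPKM in OTD and 16.0 in YTD against 21.7 in OAD and 22.8 in YAD.

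Among the fringe glycosyltransferases, which modify Notch and shift its preference between ligands, members went in opposite directions. Mfng had 49.2 FPKM in OTD and 39.9 in YTD against 8.67 in OAD and 9.71 in YAD, and was 4.11-fold lower in anagen in young (3.52 to 4.80) and 5.67-fold lower in old mice (4.87 to 6.61). Rfng had 7.98 FPKM in OTD and 13.7 in YTD against 23.2 in OAD and 24.8 in YAD, with a phase difference of 0.81 in young and 1.43 in old mice. Lfng had 19.9 FPKM in OTD and 16.6 in YTD against 17.2 in OAD and 21.0 in YAD.

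Neurl1a, a ubiquitin ligase that acts on Notch ligands, was the 1 gene of the list past the threshold between ages as reported, where pseudocounts of 0.1 and 0.01 gave 7 and 8 in telogen. It had 34.6 FPKM in OTD and 75.9 in YTD against 8.40 in OAD and 6.82 in YAD. The age difference in telogen was -1.11 and the phase difference in young mice -3.30, the lowest of the list. The summed skeletal muscle markers had the same order of the 4 libraries, and their part in the values of Neurl1a was not tested.

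In the nucleus, the coactivator Maml3 was higher in anagen, with 0.936 FPKM in OTD and 0.822 in YTD against 4.09 in OAD and 4.63 in YAD. The acetyltransferase Kat2b was lower in anagen in young mice by 1.34 on the log2 scale, at 9.79 FPKM in YAD and 26.3 in YTD. Its phase difference in old mice was -0.73, short of the threshold, and 0.08 in TPM without hair, keratin and melanocyte genes. Crebbp was higher in anagen in both ages, by 1.05 in old mice and by 0.89 in young mice, the latter short of the threshold. Of 11 corepressor genes, 2 were higher by at least 1 in young and 4 in old mice, where 16.1% of all genes were so in each age. Tle3, a Groucho family corepressor that HES proteins recruit, had 9.99 FPKM in OTD and 9.88 in YTD against 78.2 in OAD and 75.6 in YAD. Hdac1, a histone deacetylase, had 19.5, 14.8, 49.3 and 46.2 FPKM in OTD, YTD, OAD and YAD. Spen, a corepressor that RBPJ recruits in the absence of Notch, had 1.71 FPKM in OTD and 3.64 in YTD against 5.68 in OAD and 6.29 in YAD. It passed the threshold between phases in old mice, at 1.30, and not in young mice, at 0.65, and the gap between the ages was not tested.

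Numb, an inhibitor of Notch that acts on receptor trafficking, had 10.9 FPKM in OTD and 9.57 in YTD against 37.7 in OAD and 32.3 in YAD, and was 3.38-fold higher in young and 3.47-fold higher in old anagen (3.12 to 3.86). The Deltex genes divided, with Dtx2 at 7.59 FPKM in OTD and 7.53 in YTD against 16.1 in OAD and 19.5 in YAD, and Dtx1 at 3.63, 1.51, 0.649 and 0.466 FPKM in the same order. Dtx1 was thus highest in OTD, as were Dll1, Dll4, Hey1, Hey2, Mfng and further genes of the pathway.

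Of the other HES and HEY genes, Heyl had 2.34 FPKM in OTD and 2.37 in YTD against 13.6 in OAD and 12.1 in YAD, and was 5.12-fold higher in young anagen (3.74 to 7.25) and 5.79-fold higher in old anagen (4.28 to 8.14). Hes2 was listed at 0 in OTD and had 0.397 FPKM in YTD, about 4 fragments, against 5.85 in OAD and 9.11 in YAD. Hey2, at 3.07 FPKM in OTD and between 1.19 and 1.31 in the other libraries, was 2.35-fold higher in OTD than YTD (1.47 to 3.94). Hey1 and Hey2 were therefore lower and Heyl higher in anagen than telogen in old mice.

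**Figure D4:**
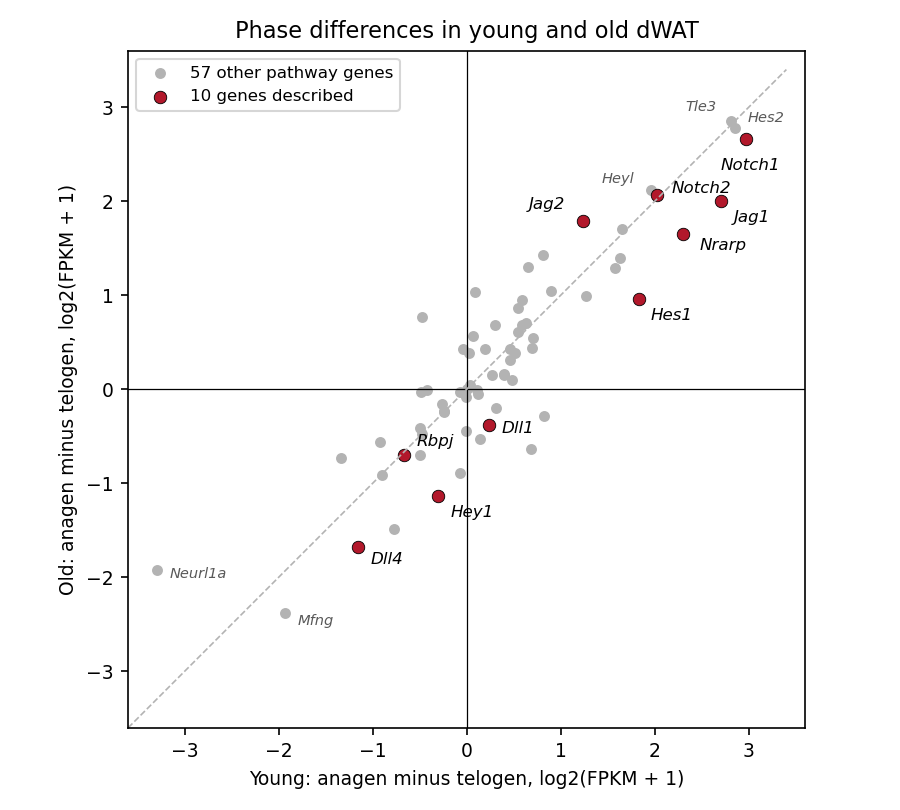
Anagen minus telogen difference of log2(FPKM + 1) in young (horizontal) and old mice (vertical), with the 10 genes in red and the 57 other pathway genes in grey. The dashed line marks equal differences. Of the 10 genes, Jag2 and Notch2 lie above it and all others below it. Hes1 and Hey1 lie furthest below, and Notch2 and Rbpj lie close to it.

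The genes whose profile over the 4 libraries was most like that of a member were named by a fixed rule, the smallest of the largest differences between profiles centred on their own means, among 13567 genes. For Notch1 these were Scube3 (0.05) and Hunk (0.06), and for Notch2 Gli2 (0.02) and Kpna2 (0.02). For Jag1 they were Tcf19 (0.05) and Kcnh1 (0.06), with all distances on the log2(FPKM + 1) scale. On that scale a gene of low FPKM can lie near a member without sharing its folds. Scube3, Hunk, Gli2 and Kcnh1 were below 1 FPKM in both telogen libraries. Scube3 had 0.427 FPKM in OTD and 0.359 in YTD against 7.52 in OAD and 9.95 in YAD. Jag2 was nearest to Ddr1 (0.04) and Prrc2a (0.05), Hes1 to Zfp800 (0.04) and Ccnl1 (0.06), and Nrarp to Trnp1 (0.09) among the genes reported here. Dll4 was nearest to Crispld2 (0.04) and Cdh19 (0.05), and Hey1 to Gfra1 (0.04) and Rapgef3 (0.05). Within 0.25 of a member lay between 29 genes (Nrarp) and 291 genes (Dll4), so with 4 libraries these likenesses are descriptions. Dll1 and Rbpj, which spanned less than 1 over the libraries, were not searched.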

How the data were processed

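RNA of dWAT was sequenced on an Illumina platform, with 1 library per group. The authors deposited FPKM for 22913 genes, with coordinates on GRCm38 and a length that is a multiple of 3 for 97% of them, as coding lengths are. The submitters' processing notes name bcl2fastq and TopHat2. The counting tool, strand setting and annotation are not given in the sources used here. Exons of Notch1, Dll1, Dll4 and Nrarp overlap opposite-strand transcripts in GENCODE M21, so reads of either strand may be mixed there. FPKM were used as deposited, on the log2(FPKM + 1) scale. Symbols were matched for 21750 identifiers. Depth was estimated from features of 2000 to 4000 bases, whose lowest values gather at 1 fragment (in units of 1e6 fragments, 20.2 for OTD, 19.0 for YTD, 24.6 for OAD, 23.0 for YAD). These are rough, and so are the intervals (Clopper-Pearson, 95%) made from them. No test between groups was possible with 1 library each. The steps were tested on simulated libraries. Named are the 10 members, other pathway genes past the threshold, Notch3, Notch4, Heyl and Hey2, and the 2 nearest profiles of each member that spans at least 1. Adam10, Aph1b and Lfng were named after their values were seen. Some genes that this rule names are not reported here. The members and lists were chosen with earlier results of these data known. Python 3.11.15, numpy 2.4.6, pandas 2.3.3, scipy 1.17.1 and matplotlib 3.10.9 were used.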

Additional observations from a re-analysis of the deposited data

Results flagged for a closer look

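The genes Jag1, Hey1 and Dll1 had differences of opposite sign in 2 settings, each with a counting interval that leaves out 0. Jag1 was higher in OTD than YTD by 0.26 and lower in OAD than YAD by -0.44, so that the age difference in anagen minus that in telogen was -0.70. Hey1 was higher in OTD by 0.40 and lower in OAD by -0.43, a difference of -0.83. Dll1 was higher in YAD than YTD by 0.24 and lower in OAD than OTD by -0.38, a difference of -0.62. This opposite sign of Dll1 depended on the scaling. Its value in old mice turned positive in TPM, with or without hair, keratin and melanocyte genes. The age differences of Jag1 and Hey1 kept their signs under every alternative. With 1 library per group none of these differences between groups was tested.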

How the results depend on the processing

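No paired analysis was possible because each group has 1 library and the labels give no replicate numbers. Under the 8 alternatives that give a log2 difference, of which the filter at an FPKM of 1 left the 10 genes as they were, their phase differences of at least 1 kept their direction, and 213 of 320 values of single genes stayed within their counting interval. In telogen the number of the 10 genes higher in OTD by the threshold was 0 as reported. It was 2 in TPM without mitochondrially encoded genes, 1 without muscle genes as well, and 4 (with 1 lower) at a threshold of 0.5. At these settings 5.37%, 5.71% and 21.3% of all genes passed in either direction. The median in anagen between ages was -0.30 in TPM, -0.24 without mitochondrially encoded genes, -0.24 without muscle genes as well and -0.28 without hair, keratin and melanocyte genes, where the median of all genes moved by -0.20, -0.15, -0.14 and -0.19. The phase median in young mice was 2.35 in TPM, 1.76 without mitochondrially encoded genes and 2.57 without hair genes. In old mice it was 1.91 in TPM, 0.997 without mitochondrially encoded and muscle genes and 2.15 without hair genes. The number lower in young anagen was 0 in TPM, with or without hair genes, 0 at a threshold of 1.5 and 2 at 0.5, and in old anagen 1 in TPM, with or without hair genes, and 1 at 1.5. Of the other pathway genes, the number past the threshold between ages in telogen was 7 and 8 with pseudocounts of 0.1 and 0.01, 3 in TPM without mitochondrially encoded genes, with or without muscle genes, 0 at 1.5 and 11 at 0.5. In anagen between ages it was 1 and 2 with those pseudocounts (6.30% and 13.8% of all genes). It was 1 in each TPM scaling (1.58% to 1.82%) and 2 at 0.5 (7.17%). Between phases in young mice it was 18 and 20 with those pseudocounts, 27 in TPM, 33 without hair genes (where 44.8% of all genes passed) and 26 at 0.5. In old mice it was 20 with a pseudocount of 0.01 (54.3% of all genes), 24 in TPM (36.3%) and 29 without hair genes (40.7%). It was 6 at 1.5 (17.9%) and 30 at 0.5 (55.7%). Pseudocounts act on genes with low FPKM. An alternative on CPM, planned for deposited counts, was not run. Estimated fragments were lowest for Hey1 in OAD, at 58, and for Hey1 and Dll4 in YAD, at 80 each. The widest counting interval of the 10 genes on the log2(FPKM + 1) scale was that of Hey1 between ages in anagen, from -0.80 to -0.04.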
